A study of Saccharomyces cerevisiae with 23 samples.

Results

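The 7 genes HIS1 to HIS7 of budding yeast, which encode the enzymes of histidine synthesis, were followed by name through a table of 6334 microarray features, and all 7 were measured. The samples were 23 mutation accumulation lines of Saccharomyces cerevisiae, lines kept apart over many generations while new mutations build up, labelled from 19-1 to 19-50. A line is named below by its last number, so that line 4 is 19-4. Each line was grown unsynchronized to log phase in YPD, a rich medium, at 30 °C to an OD600 of about 1.0, and its cDNA was hybridized in 1 column of a 2-channel array against the strain YPS183, grown in YPD at 30 °C to an OD600 of 1.1. Neither the ancestor of the lines nor a repeat of a line had a column, so the spread between lines includes the spread of culture and array, and the spread of the reference does not enter the tests. The sources used here do not say which channel is the numerator or which base the logarithm has. Values were read as log2 and keep the deposited sign, so positive and negative say nothing of which of line and reference was higher.

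Histidine is built from ATP and phosphoribosyl pyrophosphate (PRPP), the activated sugar that also feeds purine synthesis, and the pathway hands the by-product AICAR back to purine synthesis. In yeast, transcription of HIS genes is raised by Gcn4, the activator of general amino acid control, when amino acids run short, and HIS4 and HIS7 also respond to Bas1 and Pho2, which activate the adenine genes. YPD supplies amino acids and adenine. By their systematic names, HIS1 (YER055C) lies on chromosome V, HIS2 (YFR025C) on VI, HIS3 (YOR202W) on XV, HIS4 (YCL030C) on III, HIS5 (YIL116W) and HIS6 (YIL020C) on IX, and HIS7 (YBR248C) on II, so that HIS5 and HIS6 are the only pair that shares a chromosome.

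Array medians lay between -0.018 and 0.018, and array SDs lay between 0.245 in line 49 and 0.583 in line 10. Lines 1 and 45 were the most alike pair of columns (r = 0.90 over all features, with 0.80 for the next pair), and they were kept as separate lines, with their mean as an alternative. Of 253 pairs of lines, 28 had r under -0.3 over all features, the lowest being -0.64 for lines 4 and 44. A negative r does not by itself show that an array is turned, and the direction of single arrays was not tested. Only 4 features, among them ARG1 and ARG4, had the same sign in all 23 lines. With every sign turned, the means of HIS1, HIS4 and HIS5 below would read 0.62, 0.39 and 0.24, and no p-value or correlation would change. That does not cover a turn of single arrays.

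HIS1, HIS4 and HIS5 had negative means over the lines, and the means of HIS2, HIS3, HIS6 and HIS7 were not distinguished from 0. By limma's test of the mean against 0, adjusted over all 6334 features by Benjamini-Hochberg, 3 of the 7 genes passed an adjusted p of 0.05, all negative. Among all features 9.22% passed, with 5.23% negative and 3.99% positive. Every line was set against the same reference strain without dye swap. A mean away from 0, here or below, therefore cannot be told apart from an effect of dye or reference. The median of the 7 means was -0.07, beside 0.00 over all features.

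HIS1 encodes ATP phosphoribosyltransferase, the first enzyme of the pathway and the one that histidine inhibits. Its log2 ratio ran from -1.71 in line 20 through a median of -0.70 to 0.60 in line 4. It was negative in 19 lines, and the 4 positive ones were lines 4, 6, 22 and 25, of which line 25 stood at 0.01. Its mean was -0.62 ± 0.12 (SE, n = 23, limma adjusted p = 0.00198), which is 1.54-fold if the base is 2. Its SD of 0.628 was the highest of the 7 and above that of 93.1% of features, and its 3 lowest lines, 20, 44 and 45 (-1.71, -1.66 and -1.53), were set off from line 42 at -1.22.

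HIS4 encodes a protein with 3 activities, which carry out early steps and the final oxidation to histidine. Its log2 ratio ran from -1.15 in line 21 through a median of -0.47 to 0.40 in line 10, and it was negative in 18 lines and positive in 5. Its mean was -0.39 ± 0.08 (SE, n = 23, limma adjusted p = 0.00307), with an SD of 0.413. The order of lines differed from that of HIS1: line 40 had -0.93 for HIS4 and -0.11 for HIS1, and line 8 had 0.14 for HIS4 and -0.91 for HIS1.

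HIS6 encodes the isomerase that acts between the early HIS4 steps and HIS7. It was near 0 on average (-0.05 ± 0.06, SE, n = 23, 95% interval -0.17 to 0.07, limma adjusted p = 0.632), negative in 12 lines and positive in 11. Its values ran from -0.60 in line 27 to 0.64 in line 4, and the next highest was 0.26 in line 8.

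HIS7 encodes the glutamine-dependent enzyme that closes the imidazole ring and releases AICAR. Its mean was -0.07 ± 0.07 (SE, n = 23, 95% interval -0.23 to 0.08, limma adjusted p = 0.599), yet it had the third highest SD of the 7 genes (0.370, above that of 74.9% of features). It ran from -0.84 in line 44 through a median of -0.11 to 0.76 in line 6, and it was negative in 14 lines and positive in 9.

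HIS3, the imidazole glycerol-phosphate dehydratase gene that serves as a marker in many laboratory strains, varied least. Its values lay between -0.38 in line 16 and 0.38 in line 19, with an SD of 0.202, below the median SD over all features of 0.256. Its 95% interval ran from -0.11 to 0.07 (limma adjusted p = 0.80). HIS2, the histidinol-phosphatase gene, also had an SD below that median (0.216). It lay between -0.45 in line 27 and 0.35 in line 8, with a 95% interval of -0.14 to 0.04 (limma adjusted p = 0.552).

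HIS5 encodes the aminotransferase that makes histidinol phosphate. Its mean was -0.24 ± 0.07 (SE, n = 23, limma adjusted p = 0.0187), from -0.67 in line 28 through a median of -0.27 to 0.26 in line 6. It was negative in 15 lines and positive in 8, and its positive values reached no further than 0.26.

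**Figure D1:**
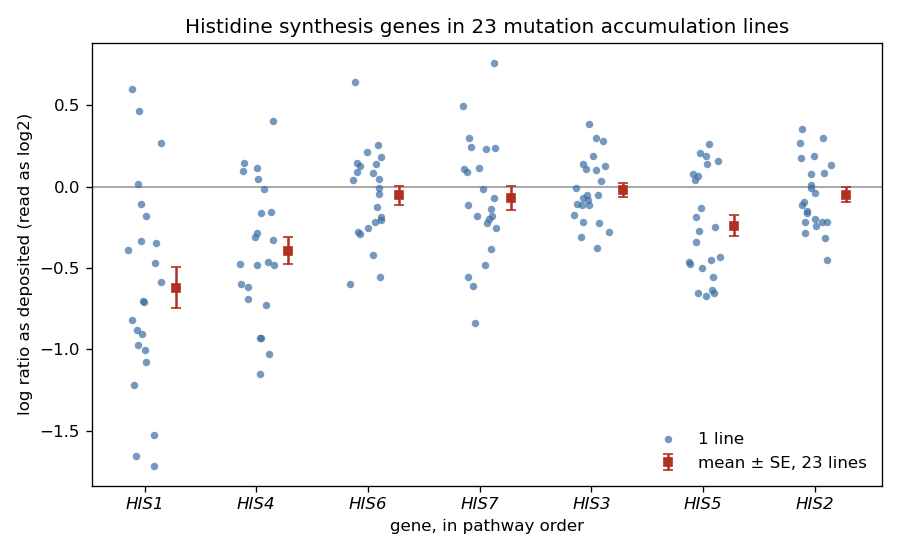
Log ratio of each histidine gene (vertical axis, read as log2) in pathway order, with 1 point per line and the mean with its SE over 23 lines as a square. HIS1 spans -1.71 to 0.60 with a mean of -0.62, while HIS3 and HIS2 stay within about 0.45 of 0.

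All 7 genes were negative in 6 lines (1, 7, 27, 42, 44 and 45), and no line had all 7 positive. Lines 4 and 6 came nearest, each with 6 positive and 1 negative gene, HIS4 at -0.01 in line 4 and HIS3 at -0.11 in line 6. HIS1 was the lowest of the 7 genes in 14 lines, or the highest in 14 with every sign turned, and HIS3 and HIS7 were each at the other end in 7 lines. In line 20, HIS1 had its lowest value of all (-1.71) beside 0.13 for HIS3 and -0.07 for HIS7. In line 8, HIS1 stood at -0.91 while the 5 genes HIS2, HIS3, HIS4, HIS5 and HIS6 were positive, from 0.14 to 0.35.

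**Figure D2:**
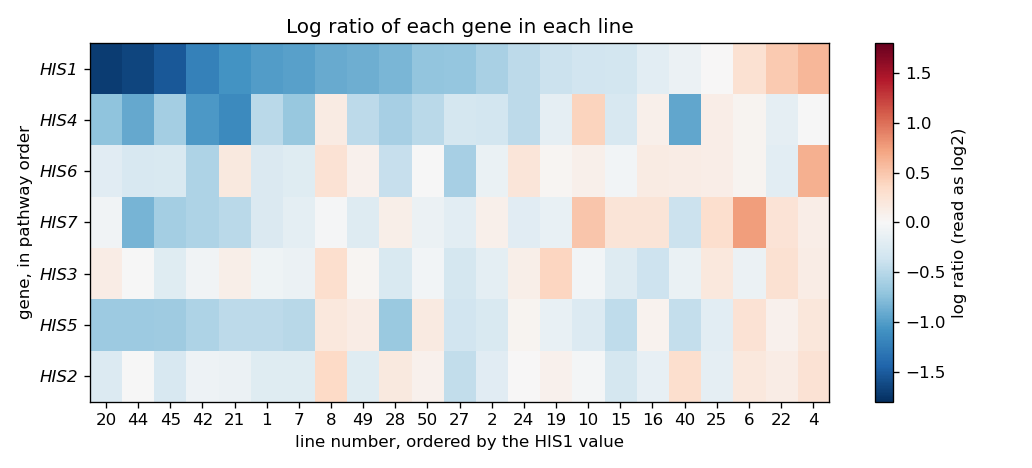
Log ratio (colour, read as log2) of the 7 genes, in pathway order, in each of the 23 lines, ordered by HIS1. HIS4, HIS5 and HIS7 are mostly negative on the left, where HIS1 is lowest, and HIS3 has no such order.

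No single line stood apart for a histidine gene in the test of 1 line against the others. Limma called 0 of 161 pairs of gene and line (adjusted p under 0.05 and a difference of 1 or more), beside 0.068% of all pairs of feature and line, and 0 with no minimum difference, beside 0.0817%. At an unadjusted p under 0.05, 8 pairs passed (4.97%, beside 5.34% of all pairs). The pair with the lowest p was HIS6 in line 4, with a difference of 0.73 ± 0.25 (SE, 1 line against 22, limma adjusted p = 0.666). That test takes a single column to vary like the other lines.

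HIS1, HIS4, HIS5 and HIS7 varied together from line to line, and HIS3 had no called relation with any of them. Pearson's r across the 23 lines was positive for 20 of the 21 pairs of genes, from -0.01 for HIS3 and HIS7 to 0.80 for HIS4 and HIS7. By a permutation test adjusted over the 21 pairs, 9 were called by r and 8 by Spearman's coefficient (given as Spearman below). Both values of a pair come from the same array.

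The pair with the highest r was HIS4 and HIS7 (r = 0.80, permutation p = 1e-05, the smallest the resamples can give, adjusted p = 0.00021; Spearman 0.81, adjusted p = 0.00021), and r was 0.76 without lines 10 and 21, those farthest from the HIS4 median. Both genes were under -0.4 in lines 21, 42, 44 and 45 and positive in lines 6, 10, 16 and 25. HIS1 followed HIS7 (r = 0.70, adjusted permutation p = 0.00168; Spearman 0.71, adjusted p = 0.00189), HIS5 (r = 0.66, 0.0042; Spearman 0.67, 0.00231) and HIS4 (r = 0.62, 0.00556; Spearman 0.67, 0.00231). Without lines 4 and 22, r was 0.73, 0.59 and 0.61 for these pairs. Many other features followed HIS1 as closely, since 17.8% of all features had r over 0.5 with it, and HIS7, HIS5 and HIS4 ranked 357, 506 and 663 of 6333 by r. HIS5 also followed HIS6 (r = 0.64, adjusted permutation p = 0.00467; Spearman 0.68, 0.00231) and HIS4 (r = 0.64, 0.00529; Spearman 0.71, 0.00189), with r of 0.60 without lines 4 and 6 and of 0.72 without lines 10 and 21. Under quantile normalization the pairs of HIS5 with HIS1 and with HIS4 were not called (r = 0.45 and 0.49, adjusted permutation p = 0.0705 and 0.0638). With chromosome medians subtracted, r for these pairs was 0.77 and 0.76 (adjusted permutation p = 0.00028 and 0.000315).

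The other 3 called pairs lost the call when 1 line was left out and under quantile normalization (adjusted permutation p = 0.0638 to 0.188). HIS1 and HIS6 (r = 0.54, adjusted permutation p = 0.0237; Spearman 0.50, 0.0434) had r = 0.41 (adjusted p = 0.119) without line 4. HIS5 and HIS7 (r = 0.53, adjusted permutation p = 0.0244; Spearman 0.51, 0.0393) had r of 0.44 to 0.49 without line 6, 44 or 45 (adjusted p = 0.0763, 0.0512 and 0.0555). HIS2 and HIS6 (r = 0.50, adjusted permutation p = 0.0364; Spearman 0.47, 0.0557) lost the call without line 1, 4, 8, 27 or 45, with r from 0.40 to 0.48 and adjusted p from 0.0521 to 0.12. With arrays scaled alike, HIS5 with HIS7 and HIS2 with HIS6 had adjusted p = 0.103 and 0.0577. Some pairs not called over 23 lines passed when 1 line was left out: HIS1 and HIS2 without line 8, HIS2 and HIS3 without line 28 or 40, HIS2 and HIS5 without line 16, 28, 40 or 49, HIS3 and HIS5 without line 16, HIS3 and HIS6 without line 16 or 22, and HIS4 and HIS6 without line 21 or 40, with adjusted p from 0.019 to 0.0496.

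**Figure D3:**
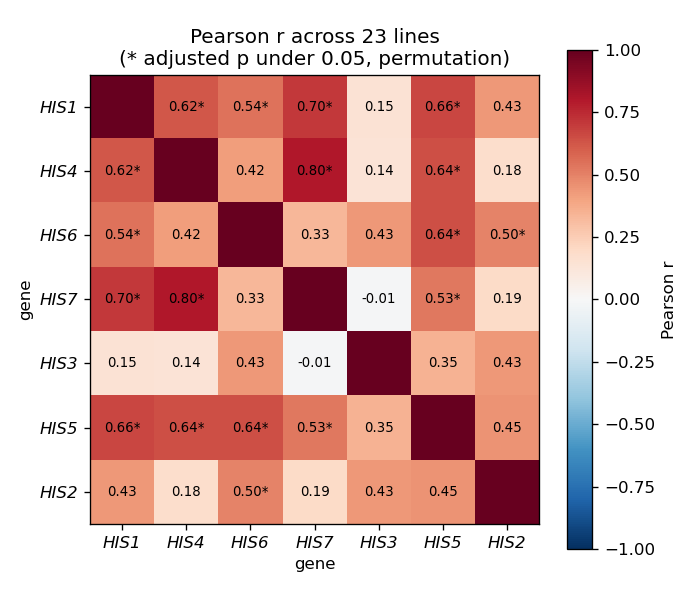
Pearson's r across 23 lines for each pair of histidine genes, with the 9 pairs called by the permutation test starred. The pair of HIS4 and HIS7 has the highest value, 0.80, and no pair with HIS3 is starred.

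These relations moved with the main axis of difference among the lines. The leading component of all other features held 44% of their variance. It had r = 0.86 with the median of 138 features picked by a name pattern for cytosolic ribosomal protein genes. Oriented to be positive for HIS1, it had r = 0.82 with HIS1 (permutation p adjusted over 7 relations = 0.00021), 0.73 with HIS7 (0.00021), 0.64 with HIS4 (0.00212), 0.58 with HIS5 (0.00712) and 0.47 with HIS6 (0.0304). For HIS2 and HIS3 r was 0.42 and 0.32 (adjusted p = 0.054 and 0.131). Spearman's coefficient for the 5 called genes was 0.78, 0.66, 0.61, 0.66 and 0.47, and without lines 6 and 10 r was 0.83, 0.62, 0.53, 0.57 and 0.48. With that component removed from every value, an alternative chosen after the data were seen, HIS4 and HIS7 were the 1 pair still called (r = 0.64, adjusted permutation p = 0.0233), and HIS1 with HIS4 and with HIS7 had r = 0.22 and 0.27 (adjusted p = 0.509 and 0.401).

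The histidine genes were also set beside 62 genes of other amino acid pathways. These were listed by pathway, and which of them Gcn4 controls was not checked. Of the 62, 31 had a called mean, 29 negative and 2 positive, beside 9.22% of all features called, 5.23% negative and 3.99% positive. The median of the 62 means was -0.22. All 9 arginine genes were called negative, led by ARG1 (-0.79) and ARG4 (-0.63), and so were 4 of 5 threonine and homoserine genes (HOM3, the aspartate kinase gene, -0.57), 7 of 13 aromatic genes (ARO3, -0.38), 4 of 6 glutamate and asparagine genes (GDH1, a glutamate dehydrogenase gene, -0.65), 2 of 8 lysine genes (LYS1, -0.43), 2 of 11 branched-chain genes (ILV3, -0.52) and 1 of 3 proline genes (PRO2, -0.29). The 2 called of 7 serine and glycine genes, SER3 (0.29) and SER1 (0.20), were positive. The branched-chain count was 4 without line 6 and 1 without line 1, 7, 15, 20, 21, 24, 27, 28, 40, 44, 45 or 49, and the serine count was 1 without line 1, 4, 15, 19, 21, 24 or 45. When 1 line was left out, 8 or 9 arginine genes were called, and 3 or 4 glutamate and asparagine genes.

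HIS1 had the highest r of the 7 with the other amino acid genes. With the median of the 62 genes in each line, HIS1 had r = 0.87 (permutation p adjusted over 7 relations = 7e-05; Spearman 0.84), HIS7 0.75 (7e-05; Spearman 0.75), HIS5 0.72 (0.00035; Spearman 0.75) and HIS4 0.69 (0.000455; Spearman 0.75). HIS6 had r = 0.50 (0.0227; Spearman 0.52) and HIS2 0.45 (0.0358; Spearman 0.49). HIS3 had r = 0.30 (0.166; Spearman 0.25). Without lines 6 and 45, farthest from the median of the list, r was 0.83, 0.64, 0.64, 0.69, 0.49, 0.34 and 0.31 in that order. The call of HIS2 was lost without line 1, 4, 6, 20, 22 or 45 (adjusted p = 0.0557 to 0.0813), with lines 1 and 45 averaged (0.0655) and with chromosome medians subtracted (0.0504), and that of HIS6 without line 4 (0.074). The median of the 62 genes itself had r = 0.80 with the leading component. With the leading component removed, HIS1 (r = 0.63, adjusted p = 0.0113) and HIS5 (r = 0.55, adjusted p = 0.0259) stayed called, and HIS4 (0.46) and HIS7 (0.43) had adjusted p = 0.063 and 0.0695.

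**Figure D4:**
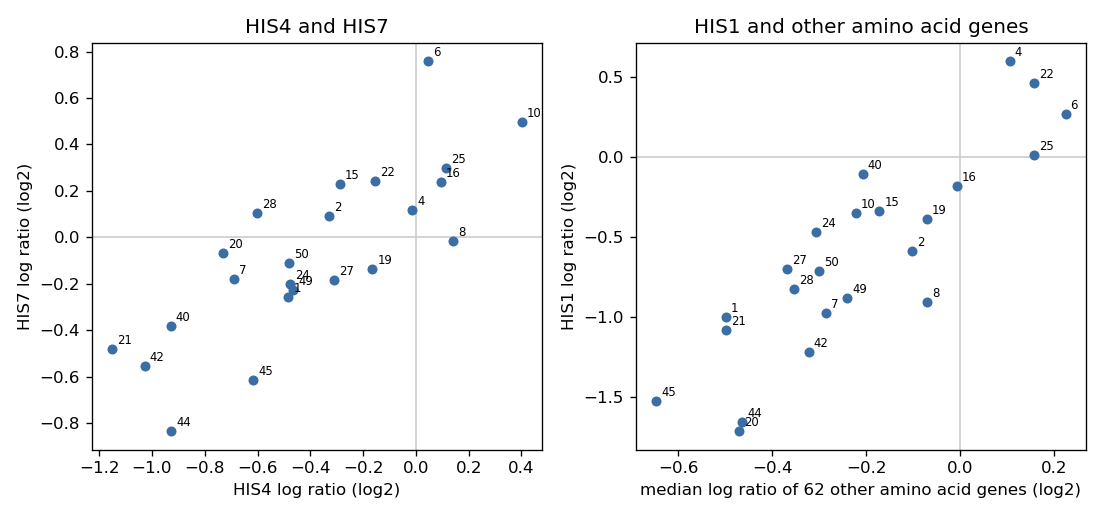
Left, HIS7 against HIS4; right, HIS1 against the median of 62 other amino acid synthesis genes, each as log ratios read as log2 with 1 numbered point per line. Pearson's r is 0.80 on the left and 0.87 on the right, and line 8 lies below the run of the points on the right, at -0.91 for HIS1.

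Most of the adenine genes listed had a high r with HIS4 and HIS7 across the lines. Of 10 adenine synthesis genes, 1 had a called mean, ADE1, which was positive (0.28 ± 0.07, SE, n = 23, limma adjusted p = 0.0104). That share of 10% is near the 9.22% of all features called. The median of the 10 means was 0.09. Across the 23 lines, 8 of the 10 had r over 0.5 with HIS4, as 10.1% of all features did, and 7 had it with HIS7, as 13.3% of all features did. With HIS4 the highest were ADE4, the first enzyme of purine synthesis (r = 0.84), ADE17, whose enzyme uses AICAR (0.82), and ADE2 (0.80). With HIS7 the highest were ADE6 (0.79), ADE4 (0.78) and ADE13 (0.71), and ADE17 had 0.65. ADE8 and ADE16, another gene whose enzyme uses AICAR, had r of 0.06 and -0.05 with HIS4 and -0.13 and -0.39 with HIS7. For HIS1 the count over 0.5 was 5, beside 17.8% of all features, and for HIS5 it was 4, beside 8.26%. For HIS2 it was 1, beside 5.75%, and for HIS3 and HIS6 it was 0, beside 2.01% and 7.85%, which are near the background. With the leading component removed, ADE4 had r = 0.70 with HIS4, 0.52 with HIS7 and -0.11 with HIS1, and ADE17 had 0.68, 0.28 and -0.25. Only ADE4 and ADE17 were examined in this way. They were the 2 features of highest r with HIS4, so they do not stand for the other adenine genes. These values are a description with no test.

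The regulators, transporter and PRPP genes around the pathway gave no result by their count of called means. The 11 genes listed were GCN4 and its kinase gene GCN2, BAS1, PHO2, the histidine permease gene HIP1, the histidyl-tRNA synthetase gene HTS1 and the PRPP synthetase genes PRS1 to PRS5, and 0 passed by limma, beside 9.22% of all features, with 1, GCN4, at an unadjusted p under 0.05. GCN4 had a mean of -0.17 ± 0.07 (SE, n = 23, limma adjusted p = 0.143), was negative in 18 lines, and had an adjusted p of 0.0291 without line 22. Its r with the histidine genes ran from 0.05 (HIS4) to 0.42 (HIS1). With HIS4 and HIS7, BAS1 had r of 0.28 and 0.26, PHO2 -0.01 and -0.16, GCN2 -0.15 and -0.07, and HIP1 0.17 and 0.28. HTS1 had 0.69 and 0.82, PRS1 0.70 and 0.84, PRS3 0.75 and 0.87, and PRS5 0.53 and 0.69. PRS4 had 0.42 and 0.57, and PRS2 -0.38 and -0.44. These relations were not particular to HIS4 and HIS7. With HIS1, HTS1 had 0.70, PRS1 0.73, PRS3 0.79, PRS4 0.66, PRS5 0.68 and PRS2 -0.57. Among all features, 10.1% had r over 0.5 with HIS4, 13.3% with HIS7 and 17.8% with HIS1. These r values were not tested. HIP1 lay between -1.02 and 0.73, with a mean of -0.15 (adjusted p = 0.296). GCN4 is known to be controlled largely at translation.

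Over all features, the 3 with the highest r across the 23 lines differed for each histidine gene, and no feature was named for more than 1 gene. For HIS1 they were APT1, the adenine phosphoribosyltransferase gene (0.92), PSA1 of GDP-mannose synthesis (0.90) and RNA1 of nuclear transport (0.89), and the stress kinase gene RCK2 was the most opposed (-0.87). For HIS4 they were ADE4, ADE17 (0.82) and HIS7 (0.80), and CIT2, the peroxisomal citrate synthase gene, was the most opposed (-0.82). For HIS7 they were YAR075W (0.88), which had no current gene, the PRPP synthetase gene PRS3 (0.87) and CBF5 of rRNA pseudouridylation (0.86), with the haem oxygenase gene HMX1 most opposed (-0.86). HIS4 ranked 23 of 6333 for HIS7.

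For the genes of smaller spread, the highest r was lower. HIS2 had YER087CA (0.76), the thioredoxin peroxidase gene TSA1 (0.74) and the uridylate kinase gene URA6 (0.74), with BSC4 most opposed (-0.78). HIS3 had YDL144C (0.72), BER1 (0.72) and YLR179C (0.70), with SPP382 most opposed (-0.75), and no other histidine gene ranked above 327 of 6333 for it. HIS5 had the lysine synthesis gene LYS12 (0.83), SHQ1 (0.82) and HPM1 (0.78), all on chromosome IX like itself, with MPF1 most opposed (-0.75). HIS6 had the casein kinase gene CKA1 (0.82), also on chromosome IX, the ribosomal stalk gene RPP2B (0.80) and the nuclear transport gene NTF2 (0.79), with RLM1 most opposed (-0.79).

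HIS5 and HIS6 lie on a chromosome that was shifted as a whole in a pair of lines. The median of the 224 chromosome IX features was 0.32 in line 49 and 0.25 in line 50, and between -0.07 and 0.05 in the other 21 lines. HIS5 was 0.14 and 0.15 in lines 49 and 50, which ranked 5 and 4 from the highest among the 23 lines, and HIS6 was 0.08 and -0.01. Both genes lay below the chromosome median there, HIS5 by 0.18 and 0.09 and HIS6 by 0.24 and 0.25. Lying below it was not particular to lines 49 and 50. In the other 21 lines the median was -0.34 for HIS5 and -0.05 for HIS6, so HIS5 stood above its usual level in lines 49 and 50. Without these 2 lines, HIS5 had r = 0.82 with LYS12, 0.81 with SHQ1 and 0.74 with HPM1, and HIS6 had 0.82 with CKA1. The mean of HIS5 over the other 21 lines was -0.28. In line 20 the median of chromosome VI was -0.23, where HIS2 had -0.24, and that of chromosome II was 0.13, where HIS7 had -0.07.

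**Figure D5:**
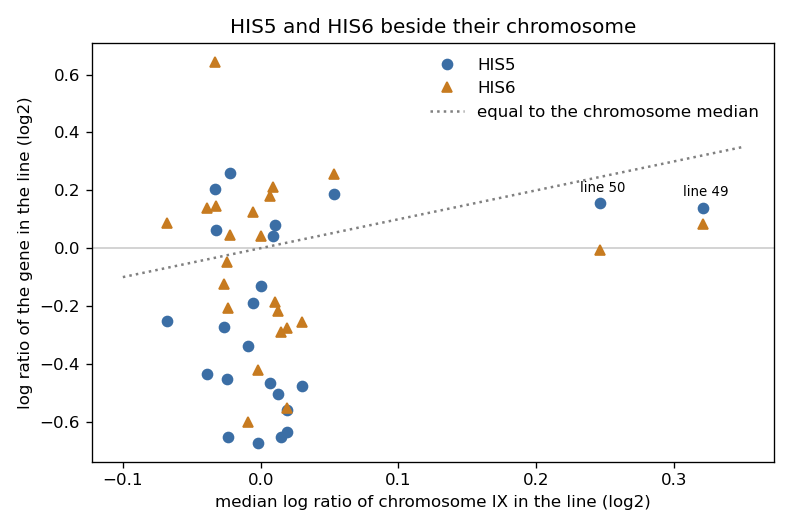
Log ratio of HIS5 (circles) and HIS6 (triangles) in each of 23 lines against the median of chromosome IX features in the same line, both read as log2, with a dotted line where they are equal. Lines 49 and 50 lie apart at 0.32 and 0.25 on the horizontal axis. Both genes lie under the dotted line there, as they do in many other lines.

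The nearest measured genes on either side of each histidine gene were not alike in their relation to it. ENP1, a gene of ribosome synthesis, and ARO4 of aromatic synthesis flank HIS7 and had r = 0.76 and 0.75 with it. They ranked 73 and 105 of 6333 features by r, and 13.3% of all features had r over 0.5 with HIS7. RPB3, an RNA polymerase subunit gene that neighbours HIS6, had r = 0.72 and ranked 35. For HIS6, 7.85% of all features had r over 0.5. GIP2 beside HIS1 had r = -0.79, and FCY2, the purine and cytosine permease gene on the other side, had 0.39 and the one called mean among the 14 neighbours (-0.43 ± 0.13, SE, n = 23, limma adjusted p = 0.0409). The remaining neighbours, LSB3 and ULI1 of HIS2, MRM1 and DED1 of HIS3, RRP7 and BIK1 of HIS4, PRM5 and NUP159 of HIS5 and FAF1 of HIS6, had r between -0.38 and 0.43.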

How the data were processed

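The authors deposited 1 table of log ratios of the 2 channels of each array, which were read as log2, the usual base. Neither labels nor header state the base, the numerator, the background correction, the normalization or any averaging of replicates or spots. Per the labels, 15 μg of total RNA of each line was copied to cDNA, labelled with one Alexa Fluor dye and compared with YPS183 cDNA in the other, without dye swap. The design names 2 biological replicates per strain, but each line has 1 column. The table had 6334 features, 23 lines and no missing value, and it holds ratios alone, so signal over background was not used and the number of arrays limits the precision. Features were named from the RefSeq R64 table, 5623 by exact systematic name and 194 after restoring a hyphen, and 517 were not matched.

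R 4.3.3 and limma 3.58.1 fitted the means (an intercept only, eBayes, two-sided), and single lines with a term for 1 line, adjusted over all features and lines. Correlations used 100000 two-sided permutations with Benjamini-Hochberg adjustment over the 21 pairs or 7 relations, in numpy 2.4.6 and pandas 2.3.3 under Python 3.11.15. Figures used matplotlib 3.10.9. The fits and the permutation test were tested on simulated data. The named genes are the 7 members, for each the 3 features of highest and 1 of lowest r, its measured neighbours with a current gene, the context genes and leading called genes of each list. The members and lists were chosen with earlier results of these data known, and the adenine correlations, the other lines and genes singled out, and the leading component after the values were seen. The lines are treated as replicates of 1 group, which the labels give with no batch.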

Additional observations from a re-analysis of the deposited data

How the results depend on the processing

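The calls of HIS1, HIS4 and HIS5, and the absence of a call for the other 4 means and for all pairs of gene and line, held with arrays scaled to 1 median absolute deviation, under quantile normalization, array weights, a trended robust prior, subtraction of chromosome medians, averaging of lines 1 and 45, features with a current gene alone and each line left out. Without 1 line, the mean of HIS1 ran from -0.68 to -0.57, of HIS4 from -0.43 to -0.36 and of HIS5 from -0.26 to -0.22. A sign-flip permutation of each gene alone gave an unadjusted p of 0.00017, 0.00022 and 0.00199 for these 3 genes. Array weights raised the count over all features from 584 to 1298, and the lysine, branched-chain and serine counts to 4, 6 and 4. The branched-chain count was 1 with a trended robust prior and with lines 1 and 45 averaged, as was the serine count in the latter. Of 21 gene pairs, 9 were called, with 4 under quantile normalization and 1 with the leading component removed, which also lowered the called relations to other amino acid genes from 6 to 2. Without 1 line, 7 to 12 pairs were called, and without lines 10 and 40, which was chosen after the data were seen, 12 were. The cause of these changes was not tested. No paired analysis was possible because the lines form 1 group.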
